A study of Mus musculus with 24 samples.

Results

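The 38 genes described here mark the endothelium, the cell layer that lines blood vessels, and were measured in mouse aorta after an infusion of angiotensin II (Ang II). They are a list of gene symbols, drawn up with earlier results of these data known, and all 38 were found among the 37606 genes of the count table. In 34 of them the gene is a feature of endothelial identity: 8 growth factor and guidance receptors, 10 junction and surface proteins, 2 secreted proteins, 3 cytoplasmic and membrane regulators, 2 capillary proteins, 3 arterial genes and 6 transcription factors. The other 4 encode adhesion molecules for leukocytes that endothelium makes when activated.

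Endothelial cells keep their identity through ETS and SoxF transcription factors such as Erg and Sox17, hold together through VE-cadherin, and respond to vascular endothelial growth factors and angiopoietins through dedicated receptors. Arterial endothelium adds Notch signalling and the connexins that couple neighbouring cells. In inflamed vessels NF-kappaB switches on E-selectin, P-selectin, Icam1 and Vcam1, which slow, capture and hold leukocytes; Vcam1 and Icam1 are also made by stromal cells and leukocytes, Pecam1, Selp and Vwf also by platelets or their precursors, and Tal1 and Lyl1 also by blood progenitors.

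RNA sequencing was done on whole aortic homogenates of wild-type mice. For 2 weeks an osmotic minipump under the skin had delivered Ang II, a hormone that raises blood pressure, or vehicle (sham), and the tissue was taken 2, 4 or 6 months afterwards. This gave 6 groups of 4 libraries: Ang II and sham at 2 months, Ang II and sham at 4 months, and Ang II and sham at 6 months. No group carried a transgene or deletion by the labels; the labels give no strain, sex, age or Ang II dose. The labels number the replicates but do not say that each came from a separate animal, so the p-values measure the spread between these libraries, which may be technical.

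Library depth, in 1e6 counts, was 19.16 to 35.13 at 2 and 4 months and 37.64 to 58.68 at 6 months, where 31.75% to 59.31% of counts came from the mitochondrial chromosome, against 7.72% to 16.32% earlier. Levels at 6 months were therefore not tested against those at earlier times. Levels are CPM, counts scaled to a common library size, after TMM scaling over all 24 libraries. The tissue was mixed: 8 adipocyte markers summed to between 4069 and 17070 CPM per library and 7 smooth muscle markers to between 322 and 5873 CPM. Sums varied more widely still for 10 airway and lung epithelium markers (38.4 to 8621 CPM) and 6 skeletal muscle markers (41.3 to 8708 CPM), each with overlap between Ang II and sham at every time; the part of these tissues in the endothelial values was not tested. No marker of the 13 cell types listed was at 0 throughout a group. Sham replicate 4 at 4 months stood apart, with a smooth muscle sum of 2227 CPM against 544 to 604 CPM in the other sham libraries of that time, and results that rest on it are given with and without it.

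Which cells made the RNA of the 38 genes was not tested, and the levels below rank these genes only against each other. The sum of 5 lymphatic endothelial markers was 32.9 to 96.7 CPM per library. Every one of the 38 genes was detected in every library, the lowest value being 0.41 CPM for Sele in 1 sham library at 2 months. Scaled by exon length, Cdh5, which encodes VE-cadherin, stood highest at 2 months with 38.7 CPM per kb in Ang II aortas and 38.4 CPM per kb in sham aortas. Pecam1, a junctional receptor that endothelial cells share with platelets, followed in sham aortas with 28.2 CPM per kb in Ang II aortas and 37.7 CPM per kb in sham aortas. RNA for the capillary proteins also ranked high among the 38 genes at 2 months. The sham mean of Plvap included replicate 4, at 107.0 CPM against 33.6 to 46.6 CPM in the other sham libraries. Plvap, which forms the diaphragms of fenestrae and caveolae, had 27.6 CPM per kb in Ang II aortas and 29.0 CPM per kb in sham aortas, and Gpihbp1, which carries lipoprotein lipase to the lumen of capillaries in fat and muscle, had 31.4 and 28.0 CPM per kb. The adhesion molecules stood low: at 2 months Vcam1 had 2.54 CPM per kb in Ang II aortas and 2.33 CPM per kb in sham aortas, and Sele and Selp were below 1 in both.

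Summed over the 34 identity genes, the endothelial signal overlapped between the groups. The sum averaged 1817 ± 172 CPM in Ang II aortas and 2029 ± 228 CPM in sham aortas at 2 months, 1680 ± 144 and 1696 ± 206 CPM at 4 months, and 1807 ± 349 and 1781 ± 188 CPM at 6 months (SD, n = 4 each). Single libraries ranged from 1500 to 2367 CPM, and the Ang II and sham ranges overlapped at each time. In bulk tissue, fewer endothelial cells and less RNA per cell cannot be told apart. Unlike the sum, the smooth muscle markers separated at 2 months, at 569 to 1463 CPM in Ang II aortas against 2876 to 5873 CPM in sham aortas. Pericyte markers separated as well, at 406 to 538 CPM in Ang II aortas against 659 to 1116 CPM in sham aortas, as did erythroid markers, at 49.8 to 154 CPM in Ang II aortas against 184 to 456 CPM in sham aortas. Their part in the results at 2 months below was not tested.

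**Figure D1:**
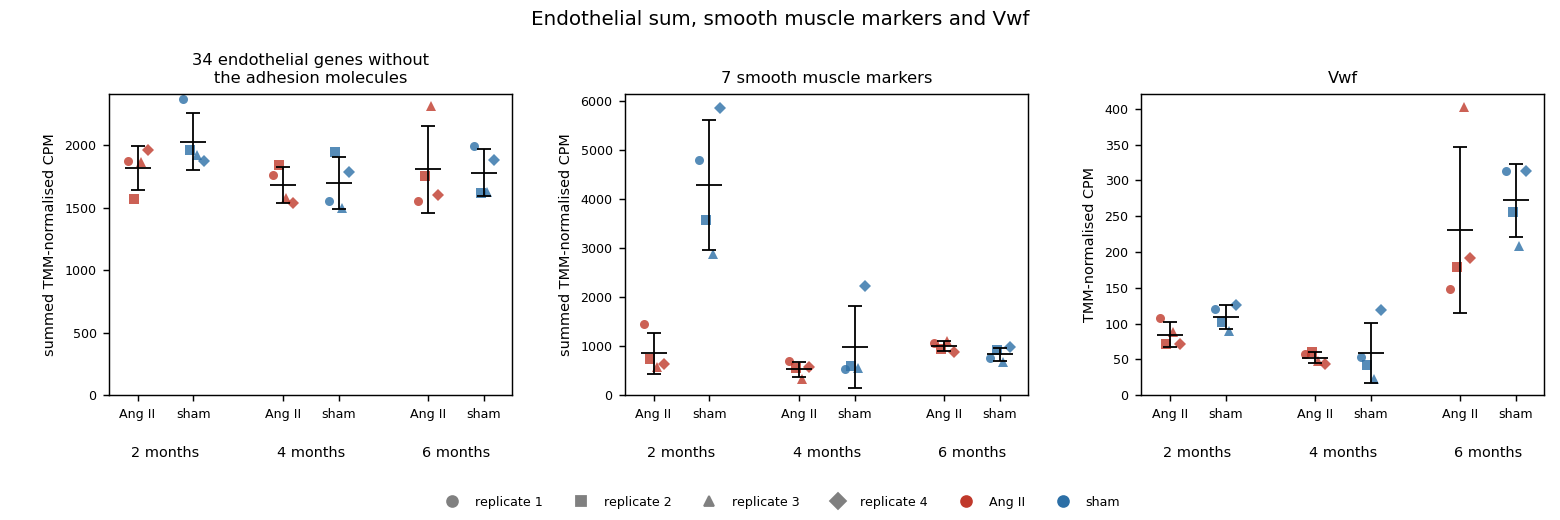
Summed TMM-normalised CPM of the 34 identity genes (left), of 7 smooth muscle markers (middle) and of Vwf alone (right), by treatment and months after infusion. Each symbol is 1 library, with its shape giving the replicate number, and the bars are mean ± SD of 4 libraries. The endothelial sums overlap at each time, the smooth muscle sums separate at 2 months, and sham replicate 4 at 4 months stands above its group in the middle and right plots.

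At 2 months after the infusion 1 of the 38 genes passed the test between Ang II and sham, the arterial connexin gene Gja5, which fell to 0.575 times its sham level. Adjusted for all genes by the Benjamini-Hochberg method at 0.05, edgeR's quasi-likelihood test called 297 of 16421 genes, which is 1.81% (1.44% lower and 0.371% higher), and 1 of 38 is 2.63%. The median log2 fold change of the 38 genes was -0.13, against 0.01 over all genes tested, with 25 below 0 and 13 above. At an unadjusted p of 0.05, 12 of the 38 (31.6%) passed, 10 lower and 2 higher, against 10.8% of all genes. In 8 of the 38 (21.1%) every Ang II library was below every sham library, where 5.51% of all genes showed this. They were Gja5, Aplnr, Myct1, Sox18, Pecam1, Podxl, Mmrn2 and Erg. In 1 gene, Egfl7, every Ang II library was above every sham library (2.38% of all genes).

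**Figure D2:**
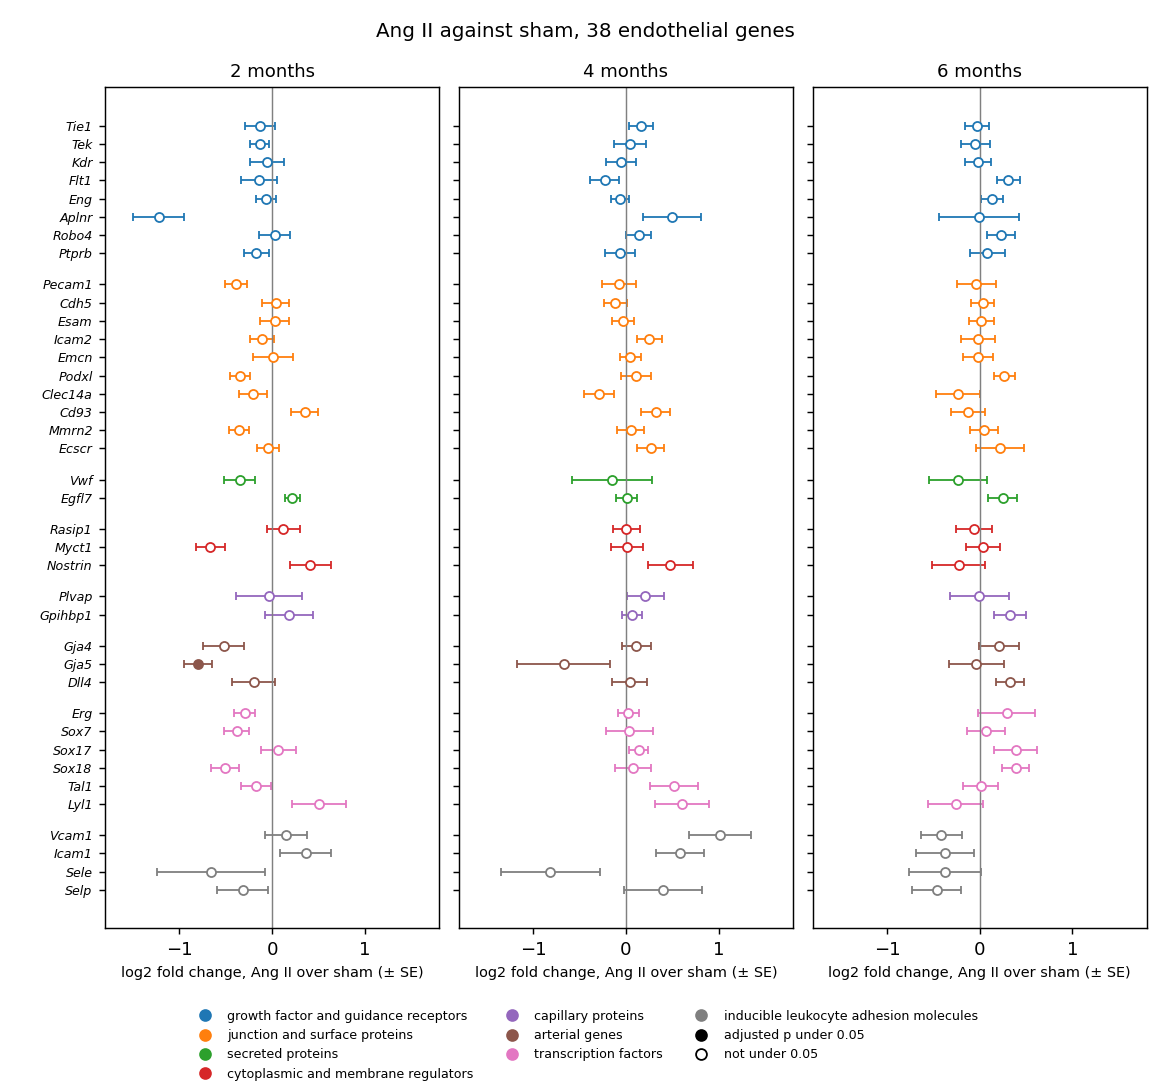
Log2 fold change of Ang II over sham with its SE for the 38 genes, ordered and coloured by role, at 2, 4 and 6 months (4 libraries per group). Filled points passed an adjusted p of 0.05 in edgeR's quasi-likelihood test over all genes. Only Gja5 at 2 months is filled, Aplnr and Myct1 lie next to it on the left, and Vcam1 lies farthest right at 4 months.

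Gja5 encodes connexin 40, a gap junction channel of arterial endothelium and of the cardiac conduction system (chromosome 3, 96904693 to 97077416, mm10). At 2 months its libraries had 14.55, 10.67, 10.69 and 13.08 CPM in Ang II aortas and 22.74, 16.83, 22.46 and 24.74 CPM in sham aortas. The highest Ang II value lay under the lowest sham value. The means were 12.25 ± 1.91 CPM in Ang II aortas and 21.69 ± 3.40 CPM in sham aortas (SD, n = 4 each), a log2 fold change of -0.80 ± 0.15 (SE) with an adjusted p of 0.0353 in edgeR's quasi-likelihood test. Without 1 library the adjusted p ran from 0.0296 (without sham replicate 2) to 0.135 (without sham replicate 1), and the gene passed in 2 of the 8 such fits. The log2 fold change stayed between -0.90 and -0.73 in them.

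At 4 months Gja5 had 6.03, 8.65, 4.70 and 4.91 CPM in Ang II aortas and 8.06, 6.09, 3.82 and 21.32 CPM in sham aortas. The groups overlapped, and the sham value of 21.32 CPM came from replicate 4, the library rich in smooth muscle markers. The log2 fold change of -0.67 did not pass (edgeR, adjusted p = 0.541) and was 0.04 without that library. At 6 months the values were 16.17, 12.29, 31.62 and 15.73 CPM in Ang II aortas and 19.42, 17.18, 15.69 and 25.92 CPM in sham aortas, with overlap and no call.

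The promoter of Gja5 is shown because it is the only gene of the 38 that passed edgeR's test between Ang II and sham. The window is the 250 bases before the start that RefSeq gives on GRCm38.p6 (chr3:97032152-97032401, plus strand). It lies inside the span given above, which begins farther upstream, so it belongs to an internal start. These bases hold a single AGGAAG, the core that ETS factors such as Erg recognise, given in capitals:
Gja5: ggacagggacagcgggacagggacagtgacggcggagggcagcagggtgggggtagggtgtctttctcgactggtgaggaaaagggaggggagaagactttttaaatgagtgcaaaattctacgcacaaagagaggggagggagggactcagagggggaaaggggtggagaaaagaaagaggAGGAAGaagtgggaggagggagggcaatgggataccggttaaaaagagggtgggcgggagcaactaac
AGGAAG was searched on both strands in 250-base windows. It occurred in 29.48% of 32851 promoters and in 13 of 26 promoters (50.0%) of the 21 endothelial genes that the table held, which is a description of these letters only.

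The other 2 arterial genes did not pass at 2 months. Gja4, which encodes connexin 37, averaged 11.8 ± 2.20 CPM in Ang II aortas and 17.4 ± 4.50 CPM in sham aortas (log2 fold change -0.52, edgeR adjusted p = 0.422). Dll4, a Notch ligand of arterial tip and lining cells, averaged 21.7 ± 5.97 and 25.4 ± 6.23 CPM. In both the ranges overlapped.

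Among the receptors, Aplnr had the lowest ratio of all 38 genes. It encodes the G-protein-coupled receptor for apelin, found on venous and capillary endothelium (chromosome 2, 85136225 to 85139923, mm10). At 2 months it had 12.28, 11.21, 11.16 and 8.93 CPM in Ang II aortas and 34.80, 24.82, 31.00 and 13.17 CPM in sham aortas. Every Ang II library was below every sham library, by a narrow margin to sham replicate 4. The log2 fold change was -1.22 ± 0.27 (SE) with an adjusted p of 0.0713 in edgeR's quasi-likelihood test, above the threshold. DESeq2 gave an adjusted p of 0.000861, and without 1 library the edgeR value ran from 0.0173 (without sham replicate 4) to 0.224 (without sham replicate 1), passing in 1 of the 8 fits. At 4 months Aplnr averaged 21.9 ± 8.59 CPM in Ang II aortas and 15.8 ± 4.37 CPM in sham aortas, and at 6 months 11.9 ± 7.20 and 11.8 ± 3.12 CPM, with overlap at both times.

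The remaining receptors kept within the spread of their groups at 2 months. Kdr, the main signalling receptor for vascular endothelial growth factor A, had 159.7, 104.0, 138.5 and 118.1 CPM in Ang II aortas and 164.9, 134.0, 151.3 and 99.99 CPM in sham aortas at 2 months. The values at 4 months were 132.6, 129.7, 102.4 and 103.1 CPM in Ang II aortas and 123.5, 154.7, 119.8 and 95.5 CPM in sham aortas. Those at 6 months were 118.1, 128.0, 107.9 and 97.1 CPM in Ang II aortas and 148.4, 98.2, 104.6 and 106.6 CPM in sham aortas. The groups overlapped each time, with log2 fold changes of -0.06, -0.05 and -0.02. The log2 fold changes at 2 months of Tie1, Tek (the angiopoietin receptor Tie2), Flt1 (a decoy and signalling receptor for the same growth factors), Eng (a co-receptor for bone morphogenetic proteins), Robo4 (a guidance receptor that stabilises vessels) and Ptprb (the phosphatase VE-PTP) lay between -0.17 and 0.03. None of these passed in any of the 7 comparisons.

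Pecam1 and Cdh5 are both proteins of the junction between endothelial cells. At 2 months Pecam1 had 188.6, 156.6, 168.0 and 189.8 CPM in Ang II aortas and 266.8, 237.0, 192.4 and 243.5 CPM in sham aortas. No Ang II library reached the lowest sham library. The log2 fold change was -0.39 ± 0.12 (SE), and its adjusted p was 0.205 in edgeR's quasi-likelihood test and 0.0324 in DESeq2. Cdh5 had 156.6, 147.6, 168.8 and 177.1 CPM in Ang II aortas and 210.0, 150.1, 159.3 and 125.6 CPM in sham aortas, with the groups overlapping and a log2 fold change of 0.04 ± 0.15. The difference between the genes was not tested.

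At 4 months Pecam1 had 160.0, 181.4, 155.8 and 145.4 CPM in Ang II aortas and 146.7, 168.8, 131.8 and 240.0 CPM in sham aortas, the last from replicate 4. Cdh5 had 148.5, 145.0, 123.4 and 136.6 CPM in Ang II aortas and 145.8, 186.0, 135.3 and 141.0 CPM in sham aortas. Both overlapped between groups, as they did at 6 months. There Pecam1 had 126.0, 154.3, 244.8 and 153.2 CPM in Ang II aortas and 173.2, 170.7, 153.6 and 198.6 CPM in sham aortas. Cdh5 had 103.0, 125.6, 138.3 and 108.8 CPM in Ang II aortas and 115.8, 109.3, 123.3 and 117.2 CPM in sham aortas.

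Of the other surface proteins at 2 months, Podxl, a sialomucin of the luminal membrane, had 69.8 to 87.4 CPM in Ang II aortas and 92.8 to 108.2 CPM in sham aortas. Mmrn2, a matrix protein that binds Clec14a and Cd93, had 35.3 to 45.2 CPM in Ang II aortas and 49.0 to 64.0 CPM in sham aortas. Their log2 fold changes, -0.34 and -0.36, did not pass (edgeR adjusted p = 0.235 and 0.199). Cd93, a lectin-like receptor for that matrix protein, lay the other way, at 80.6 ± 12.9 CPM in Ang II aortas and 64.4 ± 12.2 CPM in sham aortas with overlap (log2 fold change 0.35, adjusted p = 0.434). Its relative Clec14a, the immunoglobulin family proteins Esam and Icam2, the sialomucin Emcn and Ecscr, which takes part in endothelial migration, had log2 fold changes from -0.20 to 0.03.

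Myct1, a small membrane protein of endothelium, was the remaining gene near the threshold. At 2 months it had 13.89, 9.06, 10.47 and 9.83 CPM in Ang II aortas and 20.56, 15.87, 16.07 and 17.56 CPM in sham aortas. All Ang II libraries were below all sham libraries. The log2 fold change was -0.67 ± 0.15 (SE), with an adjusted p of 0.081 in edgeR's quasi-likelihood test and 0.00407 in DESeq2. Without 1 library the edgeR value ran from 0.0218 to 0.277 and passed in 1 of the 8 fits. By 4 months the means were 14.1 ± 3.09 CPM in Ang II aortas and 14.2 ± 1.35 CPM in sham aortas. Rasip1, which lets vessels form a lumen, and Nostrin, which moves endothelial nitric oxide synthase within the cell, had log2 fold changes of 0.12 and 0.41 at 2 months and did not pass. The authors' deposited table for 2 months, made with DESeq2 per the submitters' processing notes, lists Gja5, Aplnr, Myct1 and Pecam1 with adjusted p-values of 0.000172, 0.000932, 0.00429 and 0.0353 and none of the others under 0.05.

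**Figure D3:**
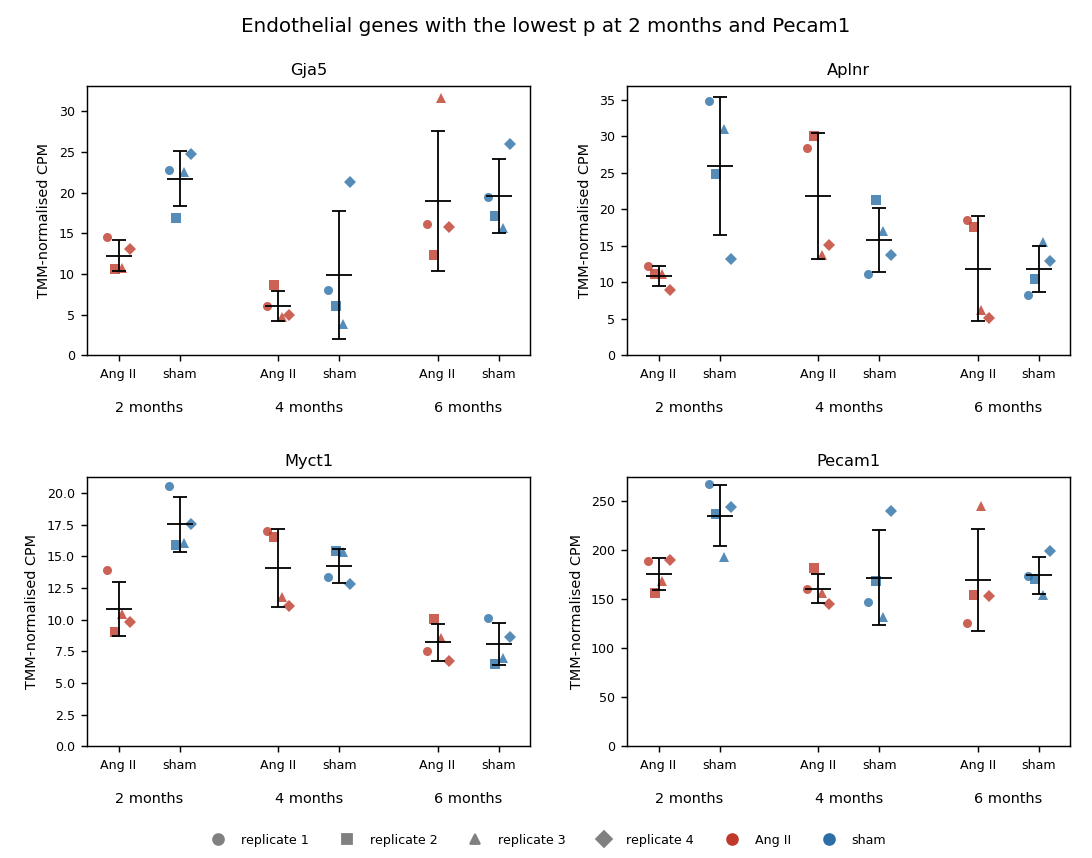
TMM-normalised CPM of Gja5, Aplnr, Myct1 and Pecam1 in each library, by treatment and months after infusion, with the shape of a symbol giving the replicate number and the bars mean ± SD of 4 libraries. At 2 months all 4 Ang II libraries lie below all 4 sham libraries for each gene, and at 4 and 6 months the groups overlap.

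The 2 secreted proteins lay on opposite sides of 0 at 2 months. Vwf, the clotting protein that endothelium stores with P-selectin, averaged 84.3 ± 17.4 CPM in Ang II aortas and 109.7 ± 16.9 CPM in sham aortas. Egfl7, a matrix protein of growing vessels, had 74.3 to 91.9 CPM in Ang II aortas and 67.5 to 73.3 CPM in sham aortas, and its log2 fold change of 0.22 did not pass (edgeR adjusted p = 0.362). At 4 months Vwf had 58.0, 60.3, 48.3 and 43.9 CPM in Ang II aortas and 53.1, 42.2, 22.9 and 119.1 CPM in sham aortas. Replicate 4 again held the high sham value, and the log2 fold change was -0.15 with it and 0.43 without it. The 2 capillary proteins showed no ordered difference at 2 months: Plvap averaged 54.9 ± 11.51 CPM in Ang II aortas and 57.6 ± 33.4 CPM in sham aortas, and Gpihbp1 80.3 ± 27.2 and 71.6 ± 19.1 CPM.

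Among the transcription factors, Sox18 and Erg had non-overlapping groups at 2 months without passing the test. Sox18, a SoxF factor of vessel development, had 37.9, 27.0, 48.2 and 45.5 CPM in Ang II aortas and 58.0, 56.0, 55.1 and 59.7 CPM in sham aortas (log2 fold change -0.51, edgeR adjusted p = 0.204). Erg, the ETS factor that maintains endothelial identity, averaged 19.5 ± 2.26 CPM in Ang II aortas and 24.4 ± 3.17 CPM in sham aortas (log2 fold change -0.30, adjusted p = 0.37). The SoxF factors Sox7 and Sox17 had log2 fold changes of -0.38 and 0.07. Tal1 and Lyl1, helix-loop-helix factors of blood and endothelium, had -0.17 and 0.51. At 6 months Sox18 was the only gene of the 38 whose groups did not overlap, at 15.7 to 23.0 CPM in Ang II aortas and 12.8 to 15.3 CPM in sham aortas, where 1.33% of all genes lay above without overlap; the log2 fold change was 0.39 and the edgeR adjusted p 0.926. Fibroblast markers also separated then, at 2658 to 3257 CPM in Ang II aortas against 3326 to 3745 CPM in sham aortas, and their part was not tested.

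At 4 months edgeR's quasi-likelihood test called 114 of 16127 genes, which is 0.707% (0.564% lower and 0.143% higher), and none of the 38. The count over all genes rested on single libraries: it was 674 without sham replicate 4 and 0 to 3 without any other, with none of the 38 in each fit. At an unadjusted p of 0.05, 1 of the 38 passed (Vcam1, higher) against 15.5% of all genes, and DESeq2 called 1 and limma voom 0 of them. Of the 38 genes 27 had log2 fold changes above 0 and 11 below, with a median of 0.05 against 0.04 over all genes. None of the 38 had groups without overlap, where 7.02% of all genes lay below and 3.22% above. At 6 months the test called 0 of 19343 genes (0.0%); 3 of the 38 had an unadjusted p under 0.05 (Flt1, Podxl and Sox18, all higher) against 5.05% of all genes, and DESeq2 and limma voom called 0 of the 38. The median log2 fold change was 0.00, with 19 genes on each side and all 38 within 0.5 of 0.

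The 4 adhesion molecules did not pass at any time, and Vcam1 at 4 months came closest. Vcam1 binds the integrin alpha4 beta1 on monocytes and lymphocytes (chromosome 3, 116109949 to 116129688, mm10). At 4 months it had 23.19, 37.63, 41.99 and 46.17 CPM in Ang II aortas and 20.26, 11.35, 12.37 and 30.51 CPM in sham aortas. In 3 of 4 Ang II libraries it was above all sham libraries. The means were 37.2 ± 9.998 CPM in Ang II aortas and 18.6 ± 8.87 CPM in sham aortas (SD, n = 4 each), a log2 fold change of 1.02 ± 0.34 (SE). The adjusted p was 0.2 in edgeR's quasi-likelihood test and 0.0492 in DESeq2. Without 1 library the edgeR value ran from 0.0509 (without sham replicate 4) to 0.426 (without Ang II replicate 4), passing in 0 of the 8 fits, with log2 fold changes from 0.84 to 1.36.

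Relative to the sum of the 34 identity genes, Vcam1 made up 2.25% ± 0.739 in Ang II aortas and 1.11% ± 0.502 in sham aortas at 4 months. Macrophage markers separated at that time, at 567 to 996 CPM in Ang II aortas against 307 to 498 CPM in sham aortas. Fibroblast markers did too, at 4044 to 4221 CPM in Ang II aortas against 2725 to 3867 CPM in sham aortas. B and T cell markers overlapped, at 27.49 to 469.5 CPM in Ang II aortas and 54.55 to 215.6 CPM in sham aortas. The part of these cell types in the Vcam1 values was not tested. At 2 months Vcam1 had 16.79, 31.18, 22.83 and 19.14 CPM in Ang II aortas and 18.55, 26.13, 16.10 and 22.03 CPM in sham aortas. At 6 months it had 22.13, 21.84, 21.18 and 21.21 CPM in Ang II aortas and 21.07, 41.00, 21.44 and 30.81 CPM in sham aortas. Both times the groups overlapped, with log2 fold changes of 0.15 and -0.41.

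Icam1, the ligand of leukocyte beta2 integrins, had 12.67, 23.88, 13.99 and 9.41 CPM in Ang II aortas and 10.86, 13.44, 10.85 and 12.72 CPM in sham aortas at 2 months. Its values at 4 months were 8.68, 13.89, 21.09 and 16.26 CPM in Ang II aortas and 10.63, 9.44, 7.63 and 12.72 CPM in sham aortas. Those at 6 months were 14.07, 11.76, 23.63 and 17.20 CPM in Ang II aortas and 18.13, 34.98, 16.56 and 16.59 CPM in sham aortas. The groups overlapped throughout, and the log2 fold changes were 0.36, 0.58 and -0.38 in order of time. In Ang II aortas at 2 and 4 months, the library highest for Icam1 also had the highest sum of 8 B and T cell markers. The same held in sham aortas at 2 and 6 months, but not in sham at 4 months or Ang II at 6 months. The part of these cells in the Icam1 values was not tested.

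Sele encodes E-selectin, which endothelium makes mainly when stimulated, and Selp encodes P-selectin, which it also stores ready for release. Sele had 0.66, 1.99, 1.29 and 1.5 CPM in Ang II aortas and 3.28, 2.19, 2.90 and 0.41 CPM in sham aortas at 2 months. At 4 months it had 3.66, 2.03, 1.55 and 1.49 CPM in Ang II aortas and 5.68, 3.91, 5.2 and 0.93 CPM in sham aortas, and at 6 months 2.43, 3.28, 4.00 and 2.85 CPM in Ang II aortas and 1.78, 3.11, 4.70 and 6.54 CPM in sham aortas. At 2 and at 4 months 3 sham libraries were above all Ang II libraries and sham replicate 4 was below all of them.

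Selp had 3.76, 2.62, 2.53 and 3.42 CPM in Ang II aortas and 3.42, 3.63, 2.66 and 5.99 CPM in sham aortas at 2 months. At 4 months it had 3.38, 4.16, 3.11 and 1.61 CPM in Ang II aortas and 2.57, 1.95, 1.05 and 3.82 CPM in sham aortas, and at 6 months 4.49, 6.33, 6.35 and 7.02 CPM in Ang II aortas and 13.44, 6.97, 6.17 and 7.10 CPM in sham aortas. The groups overlapped at each time for both selectins. The log2 fold changes were -0.66, -0.82 and -0.37 for Sele and -0.32, 0.40 and -0.46 for Selp, with SEs of 0.26 to 0.58.

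**Figure D4:**
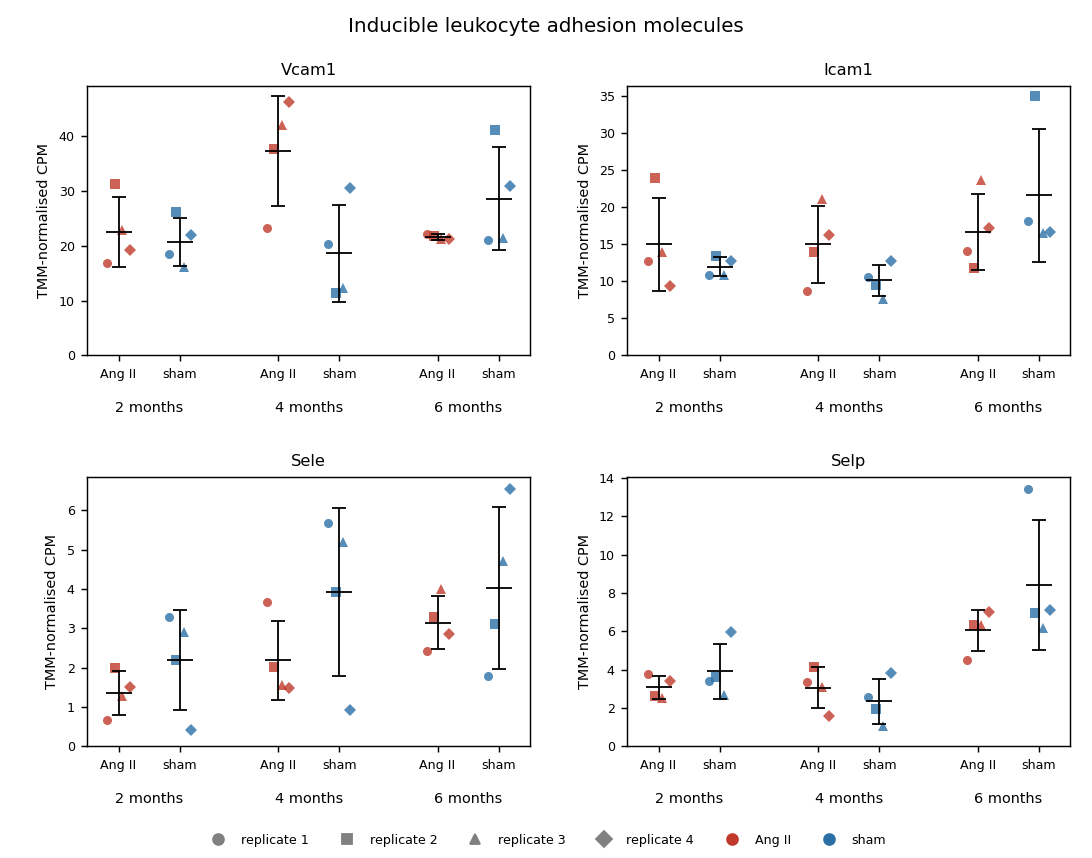
TMM-normalised CPM of the 4 inducible adhesion molecules in each library, by treatment and months after infusion, with the shape of a symbol giving the replicate number and the bars mean ± SD of 4 libraries. Vcam1 at 4 months is high in 3 Ang II libraries, Sele lies below 7 CPM throughout, and 1 sham library at 6 months stands above its group for Icam1 and for Selp.

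The promoters of Icam1, Sele and Selp are shown because NF-kappaB is the known switch of these genes. Each is the 250 bases before the start from RefSeq on GRCm38.p6: chr9:21015690-21015939 for Icam1, chr1:164047984-164048233 for Sele and chr1:164115014-164115263 for Selp, all on the plus strand. Capitals mark AGGAAG and a loose form of the kappaB site, GGG and CC parted by any 5 letters, on either strand:
Icam1: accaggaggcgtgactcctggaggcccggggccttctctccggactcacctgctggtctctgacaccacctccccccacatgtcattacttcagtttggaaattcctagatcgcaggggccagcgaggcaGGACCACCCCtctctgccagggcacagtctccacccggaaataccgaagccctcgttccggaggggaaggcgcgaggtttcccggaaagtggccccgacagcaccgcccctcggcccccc
Sele: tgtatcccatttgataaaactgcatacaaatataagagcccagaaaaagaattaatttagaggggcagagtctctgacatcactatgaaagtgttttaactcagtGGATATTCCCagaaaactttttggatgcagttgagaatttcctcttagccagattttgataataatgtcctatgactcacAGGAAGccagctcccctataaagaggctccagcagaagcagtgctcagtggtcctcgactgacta
Selp: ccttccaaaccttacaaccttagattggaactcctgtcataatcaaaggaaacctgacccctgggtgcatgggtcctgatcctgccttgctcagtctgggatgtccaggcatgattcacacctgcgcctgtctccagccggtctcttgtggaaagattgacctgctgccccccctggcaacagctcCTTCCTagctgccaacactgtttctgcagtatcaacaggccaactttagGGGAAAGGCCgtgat
The kappaB pattern was found once in each of the 3 and not in the Gja5 window, and AGGAAG once in Sele and Selp. With both strands searched and no overlap between the 2 motifs in these windows, the kappaB pattern occurred in 45.8% of 32851 promoters and in 14 of 26 promoters (53.85%) of the 21 endothelial genes in the table. Such a loose pattern is common, and a match is not a binding site. Stretches that lack GGG on both strands, such as tggaaattcc in the Icam1 window, fall outside the pattern. The capitals therefore do not mark every possible kappaB site.

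Averaged over the 3 times with time as a block, edgeR's quasi-likelihood test called 1 of 19218 genes (0.0052%) and 0 of the 38. At an unadjusted p of 0.05, 3 of the 38 passed (Gja5, Clec14a and Sele, all lower) against 6.9% of all genes, and DESeq2 and limma voom called 0. Whether the Ang II effect differed between times was tested over all 24 libraries. It differed for 103 of 19218 genes (0.536%) and for 0 of the 38, with 6 at an unadjusted p under 0.05 (Sox18, Vcam1, Podxl, Aplnr, Myct1 and Gja4) against 11.9% of all genes. DESeq2 called 0 and limma voom 2 of the 38 (Vcam1 and Aplnr). For Vcam1 the edgeR adjusted p of this interaction was 0.219, and without 1 library it ran from 0.0372 (without sham replicate 4 at 4 months) to 0.38 (without sham replicate 2 at 4 months), passing in 1 of the 24 fits. Over all genes the interaction called 308 without sham replicate 4 at 4 months.

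Between 4 and 2 months the sham aortas were compared with each other, and so were the Ang II aortas. These comparisons share their 2-month and 4-month libraries with those above, so their values are not independent of them. In sham aortas edgeR's quasi-likelihood test called 1 of 16144 genes (0.00619%) and 0 of the 38. Without sham replicate 4 at 4 months it called 641 genes, and without any other library 0 or 1. At an unadjusted p of 0.05, 12 of the 38 passed, all lower at 4 months, against 15.8% of all genes, while DESeq2 called 1 (Podxl) and limma voom 3 (Podxl, Aplnr and Gja5). The median log2 fold change of the 38 was -0.29, against -0.02 over all genes, with 33 below 0. Other cell types separated in the same comparison. Smooth muscle markers summed to 544 to 2227 CPM at 4 months against 2876 to 5873 CPM at 2 months, pericyte markers to 459 to 593 CPM against 659 to 1116 CPM, and adipocyte markers to 12580 to 17070 CPM against 10120 to 12530 CPM. Their part in the values of the 38 was not tested. In 5 genes, 13.2% (Podxl, Erg, Mmrn2, Myct1 and Ecscr) every 4-month library was below every 2-month library, as in 6.11% of all genes, and in none was every one above (3.3% of all genes). Gja5 averaged 9.82 ± 7.86 CPM at 4 months and 21.69 ± 3.40 CPM at 2 months, a log2 fold change of -1.16 with an adjusted p of 0.284. Without sham replicate 4 at 4 months the log2 fold change was -1.89 and the gene passed (edgeR adjusted p = 0.00956), the only such fit of 8 in which it did; Vwf and Pecam1 then passed as well, with adjusted p-values of 0.0298 and 0.0415.

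In Ang II aortas between 4 and 2 months edgeR's quasi-likelihood test called 1 of 16367 genes (0.00611%) and 0 of the 38. At an unadjusted p of 0.05, 9 of the 38 passed, 7 lower and 2 higher at 4 months, against 10.7% of all genes, and DESeq2 called 3 (Vwf and Gja5 lower, Aplnr higher) and limma voom 0. Gja5 averaged 6.07 ± 1.81 CPM at 4 months and 12.25 ± 1.91 CPM at 2 months (log2 fold change -0.997, edgeR adjusted p = 0.225). Aplnr averaged 21.9 ± 8.59 CPM at 4 months and 10.9 ± 1.41 CPM at 2 months (log2 fold change 1.02, adjusted p = 0.307). Erythroid markers separated here, at 187 to 473 CPM at 4 months against 49.8 to 154 CPM at 2 months, and their part was not tested. In 4 genes every 4-month library was lower (Gja5, Vwf, Cd93 and Egfl7; 3.49% of all genes) and in 1, Aplnr, every one was higher (2.5%).

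Of 66 further genes listed as partners of the 38, 64 were tested. Among 6 Notch signalling genes, 2 fell at 2 months (33.3%, against 1.44% of all genes called lower) and 4 did not pass. Hey2 and Heyl are transcriptional repressors switched on by Notch, in arterial endothelium and in the smooth muscle and pericytes of the vessel wall. Hey2 had 6.90, 6.81, 5.97 and 5.82 CPM in Ang II aortas and 14.21, 14.54, 9.47 and 16.00 CPM in sham aortas. Heyl had 27.07, 24.49, 26.39 and 26.08 CPM in Ang II aortas and 59.80, 46.46, 33.21 and 67.16 CPM in sham aortas. Neither overlapped, where 5.51% of all genes lay below sham without overlap. The log2 fold changes of Hey2 and Heyl were -1.06 ± 0.18 and -0.96 ± 0.19 (SE), with adjusted p-values of 0.0241 and 0.0444 in edgeR's quasi-likelihood test. Without 1 library these ran from 0.00817 to 0.0993 for Hey2, which passed in 2 of the 8 fits, and from 0.00784 to 0.159 for Heyl, which passed in 1. Both lie beside the smooth muscle and pericyte sums given above, whose part in them was not tested.

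Of 14 other endothelial genes, 10 had log2 fold changes below 0 at 2 months, with a median of -0.2. At an unadjusted p of 0.05 in edgeR's test, 5 passed lower and 1 higher, against 10.8% of all genes. DESeq2 called Calcrl, Ramp2 and Tm4sf1 lower, and limma voom called Calcrl and Ramp2 lower. The only 1 of the 14 that passed edgeR's adjusted test (7.14%, against 1.81% of all genes) rose. It was Cldn5, which encodes the tight junction protein claudin 5. It had 180.3, 130.3, 118.8 and 169.6 CPM in Ang II aortas and 70.1, 45.5, 55.9 and 59.3 CPM in sham aortas. The lowest Ang II library was well above the highest sham library. The log2 fold change was 1.40 ± 0.17 (SE) with an adjusted p of 0.0082 in edgeR's quasi-likelihood test, and it passed whichever single library was left out (adjusted p up to 0.0416). At 4 months Cldn5 averaged 83.4 ± 10.8 CPM in Ang II aortas and 70.8 ± 14.7 CPM in sham aortas, and at 6 months 21.5 ± 5.24 and 26.0 ± 2.89 CPM. The Ang II effect on it differed between times (interaction, edgeR adjusted p = 0.0108).

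Among 14 ligands of the receptors none passed within a time in edgeR's quasi-likelihood test (2, 2 and 0 at an unadjusted p under 0.05, where 10.8%, 15.5% and 5.05% of all genes were), and Angpt2 passed the interaction (adjusted p = 0.0422). Within a time, DESeq2 and limma voom each called 1 of them, Angpt2 at 2 months. Angpt2 is the angiopoietin that endothelium releases and that opposes Tie2 signalling. It had 13.54, 6.14, 7.42 and 6.73 CPM in Ang II aortas and 18.37, 15.19, 14 and 22.36 CPM in sham aortas at 2 months, a log2 fold change of -1.02. The 4-month values were 12.38, 13.42, 6.10 and 9.26 CPM in Ang II aortas and 6.83, 6.14, 5.33 and 7.01 CPM in sham aortas, a log2 fold change of 0.73. At 6 months the log2 fold change was 0.21. The groups were apart at 2 months and overlapped at 4 months, where the Ang II values were mostly the higher.

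**Figure D5:**
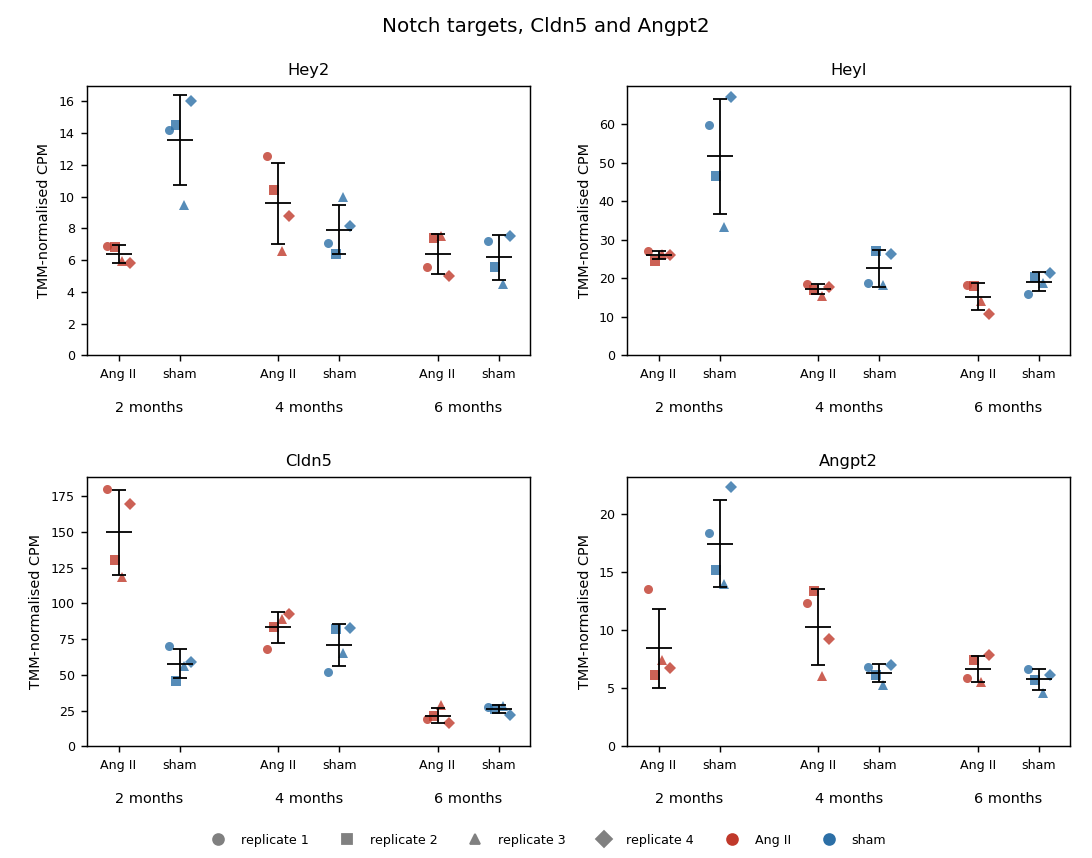
TMM-normalised CPM of the Notch targets Hey2 and Heyl, of Cldn5 and of Angpt2 in each library, by treatment and months after infusion, with the shape of a symbol giving the replicate number and the bars mean ± SD of 4 libraries. At 2 months the Ang II libraries lie below sham for Hey2, Heyl and Angpt2 and above sham for Cldn5.

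None of the 10 NF-kappaB response genes, 11 leukocyte partners of the adhesion molecules or 9 tested endothelial transcription factors passed at any time in edgeR's quasi-likelihood test. All 10 NF-kappaB response genes had log2 fold changes above 0 at 2 and at 4 months (medians 0.27 and 0.33) and 3 of 10 at 6 months. At an unadjusted p of 0.05, 0 of them passed at 2 months, 1 (higher) at 4 months and 3 (1 higher and 2 lower) at 6 months. The leukocyte partners include the integrins that bind Vcam1 and Icam1. Their medians were 0.66, 0.45 and -0.46 in order of time, against 0.01, 0.04 and -0.03 over all genes. Of these partners 4 (2 higher and 2 lower), 4 (all higher) and 0 had an unadjusted p under 0.05. The share of all genes under that p was 10.8%, 15.5% and 5.05% in the same order. Other tools called a few of these: DESeq2 and limma voom each called Glg1 and Itgb1 (lower) at 2 months and Irf1 (higher) at 4 months, and DESeq2 called Itgam (higher) at 4 months. Of the transcription factors 0, 1 and 1 (higher both times) had an unadjusted p under 0.05, and DESeq2 and limma voom called 0 at any time. At 6 months Mef2c was highest in Ang II replicates 3 and 4 (135.8 and 142.2 CPM). These libraries also had the highest skeletal muscle sums of that time (8079 and 7130 CPM). Ets1 was then highest in sham replicate 2 (151.4 CPM), which had the highest B and T cell sum (203.8 CPM). The part of these tissues in both genes was not tested.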

How the data were processed

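RNA from 24 mouse aortic homogenates was sequenced, 4 per group. Per the submitters' processing notes, reads were handled with FastQC, cutadapt, STAR and featureCounts on mm10 and tested with DESeq2; no version or strand setting is stated there. What the authors deposited was raw counts per gene (37606 genes) and tables of Ang II against sham per time with log2 fold changes and p-values, which were used for gene symbols and where named. Symbols came from the deposited tables (23514 IDs) or a reference list of gene names (14015), and 77 IDs had none. Exon lengths came from GENCODE M21. Reads of overlapping and antisense genes cannot be told apart without strand.

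The deposited counts were tested in R 4.3.3 with edgeR 4.0.16: filterByExpr (minimum count 10, minimum total 15), TMM, the quasi-likelihood F test and Benjamini-Hochberg adjustment over all genes tested at 0.05. An SE is the log2 fold change over the square root of F. The 7 comparisons were Ang II against sham at each time (8 libraries), their average with time as a block and the interaction with time (24 libraries), and 4 against 2 months within sham and within Ang II. CPM of single libraries are TMM-scaled over all 24. No p-value was computed for a sum or list. The script was tested on simulated counts. The lowest chi-square per gene between replicates was 26.44, far beyond sampling noise, so each library counts once.

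Alternatives were DESeq2 1.42.0, its size factors in edgeR, limma voom 3.58.1 with quality weights, other count filters, mitochondrial and ribosomal RNA genes left out, replicate numbers as a block, a minimum absolute log2 fold change of 1, and each library left out. The 38 genes, the partner and marker lists and the tests were chosen with earlier results of these data known. All 38 are named; values per library are given for genes that passed, the 4 adhesion molecules, Pecam1, Cdh5 and Kdr, and for Aplnr, Myct1, Sox18, Vwf and Angpt2 after their values were seen. Hhex, Pdpn and Ccl21a were not analysed here, and Apela was too low to test.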

Additional observations from a re-analysis of the deposited data

Results flagged for a closer look

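In 8 of 234 sets of 4 libraries, 1 library was far from the other 3, with a gap above Dixon's 95% critical value. Chance flags about 1 in 20 such sets. In sham aortas at 6 months, replicate 1 was high for Erg, at 35.51 CPM against 14.56 to 17.36 CPM in the other 3. It was also high for Kdr, at 148.39 CPM against 98.22 to 106.55 CPM, and for Selp, at 13.44 CPM against 6.17 to 7.10 CPM. This library had the highest mitochondrial share of its group, 59.31% against 31.75% to 42.03%. Its platelet markers (186.9 against 59.81 to 137 CPM) and mesothelial markers (1133 against 425.1 to 546 CPM) were also the highest of the group. So were its erythroid markers (3100 against 504.8 to 1941 CPM) and its macrophage, fibroblast and Schwann cell markers. Airway and lung epithelium markers (87.37 against 2865 to 6571 CPM) and skeletal muscle markers (41.32 against 430.4 to 591.1 CPM) were the lowest. The part of this tissue make-up in the flagged values was not tested. Replicate 2 of sham aortas at 6 months had 34.98 CPM of Icam1 against 16.56 to 18.13 CPM. Its B and T cell markers summed to 203.8 CPM, against 37.37 to 75.09 CPM in the others of its group, and their part was not tested. In sham aortas at 2 months, replicate 1 had 29.16 CPM of Erg against 22.57 to 23.07 CPM and 63.99 CPM of Mmrn2 against 48.95 to 51.26 CPM, and replicate 3 had 1.94 CPM of Nostrin against 2.37 to 2.40 CPM. In Ang II aortas at 4 months, replicate 2 had 11.04 CPM of Ecscr against 9.24 to 9.38 CPM.

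The Ang II effect differed between times for 2 genes outside the 38, Cldn5 with an adjusted p of 0.0108 and Angpt2 with 0.0422 (edgeR quasi-likelihood interaction over 24 libraries). For Cldn5 the adjusted p was 0.00428 to 0.0279 without any 1 library. For Angpt2 it was 0.0109 to 0.104, above 0.05 in most of these fits, and 0.0916 with the replicate block.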

How the results depend on the processing

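Of the 38 genes, the number passing at 2 months was 1 in edgeR's quasi-likelihood test, 4 with DESeq2 (Gja5, Aplnr, Myct1 and Pecam1), 3 with limma voom and 3 with the replicate block (Gja5, Aplnr and Myct1 in both), and 0 where the absolute log2 fold change also had to reach 1; Gja5 passed under all these settings but the last. At 4 months DESeq2 called 1 where edgeR's test called 0. For the interaction limma voom called 2 against 0, for sham at 4 against 2 months DESeq2 called 1 and limma voom 3 against 0, and for Ang II at 4 against 2 months DESeq2 called 3 against 0. Without 1 library the numbers were 0 to 2 at 2 months, 0 to 1 for the interaction and 0 to 3 for sham at 4 against 2 months. They were 0 in each such fit at 4 months, at 6 months, for the average and for Ang II at 4 against 2 months. The cause of these differences was not tested.

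Direction was unstable for many values that had not passed. Leaving out 1 library turned the sign of the log2 fold change in 84 of 228 values (38 genes in 6 comparisons), among them 12 at 2 months, 19 at 4 months and 18 at 6 months, and the other settings turned 34. Gja5 at 2 months, the value that had passed, was not among them. In 8 values the turn was by more than the SE. Leaving out 1 library at a time, the log2 fold changes of Ang II over sham at 4 months ran from -0.188 to 0.124 for Pecam1, -0.424 to 0.433 for Vwf and -0.942 to 0.037 for Gja5, each highest without sham replicate 4. At 6 months they ran from -0.118 to 0.161 for Ptprb and -0.116 to 0.137 for Mmrn2, lowest without Ang II replicate 3, and at 2 months from -0.222 to 0.449 for Plvap, highest without sham replicate 4. For sham at 4 against 2 months they ran from -0.222 to 0.067 for Cdh5 and -0.596 to 0.054 for Plvap, highest without replicates 1 and 4 of 2 months, and limma voom gave 0.023 for Plvap. With mitochondrial and ribosomal RNA genes left out, the sum of the 34 identity genes averaged 2468 CPM in Ang II aortas and 2761 CPM in sham aortas at 2 months, 2277 and 2296 CPM at 4 months, and 2385 and 2338 CPM at 6 months, since the total is then smaller; the order within each time was as before.

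Deviations from the group mean were correlated between same-numbered Ang II and sham replicates. By time, the correlations were between -0.294 and 0.437, between -0.189 and 0.328, and between -0.168 and 0.509. Ang II replicate 2 at 2 and 4 months and replicate 3 at 6 months were closest to the sham library of the same number. The other replicates were not. With 4 libraries per group these values cannot decide whether the numbers pair the libraries, and the main tests used no pairing. With the replicate block 3 of the 38 passed at 2 months and 0 in the other comparisons, Heyl no longer passed at 2 months (adjusted p = 0.083), and 208, 0 and 0 genes in all passed at 2, 4 and 6 months.

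Over all genes the number passing without 1 library was 78 to 255 at 2 months, 0 to 674 at 4 months, 0 at 6 months, 1 to 7 for the average, 34 to 308 for the interaction, 0 to 641 for sham at 4 against 2 months and 0 to 1 for Ang II at 4 against 2 months. The highest values at 4 months, for the interaction and for sham were those without sham replicate 4 at 4 months. With all libraries the number passing at 2 months was 297, with 727 in DESeq2, 629 in limma voom and 192 where the absolute log2 fold change also had to reach 1. At 4 months it was 114, with 993, 602 and 16, and 40 without a filter, 68 at a mean count of at least 5 and 233 without mitochondrial and ribosomal RNA genes. At 6 months DESeq2 called 63. For the average DESeq2 called 62 and limma voom 30, for the interaction 543 and 787, for sham at 4 against 2 months 852 and 801 (140 with the block), and for Ang II at 4 against 2 months 266 and 20. Depth limits the lowest genes most: Sele had at most 290 counts in a library.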
